A study of Mus musculus with 12 samples.

Results

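C2cd4b, Arg1, Gnat1, Bex4 and Vdr are 5 genes of the mouse that had almost no reads in resting calf muscle and were counted in that muscle after a run. They were picked from 43432 gene identifiers by their counts. In 1 genotype the 3 sedentary libraries together held 0 to 3 counts, and the exercised libraries of that genotype averaged at least 1 CPM (the count scaled to library size with TMM factors). The difference between exercised and sedentary libraries is therefore what chose them, and in any genotype that met the rule it is described here without a test. RNA was sequenced from the gastrocnemius, a muscle of the calf, taken from males in 4 groups of 3 libraries each. The groups were exercised cFeimin MKO mice, exercised WT mice, sedentary cFeimin MKO mice and sedentary WT mice. Exercised mice had run for 90 min at 60% of their top speed, and the mice called WT were fl/fl, so they are floxed rather than unmodified animals. No label gives the age of the mice, the promoter that drives the recombinase or the time between the run and sampling. Nothing in the labels says that the libraries of a group came from separate cages or days, so p-values measure the spread between these samples only.

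The vitamin D receptor Vdr is a nuclear receptor that binds the active form of vitamin D, pairs with a retinoid X receptor and switches genes such as the vitamin D-degrading enzyme Cyp24a1. Gnat1 encodes the alpha subunit of transducin, the G protein of the light response in rod cells of the retina. Arg1, arginase 1, splits arginine into ornithine and urea. It belongs to the urea cycle of the liver and is a common marker of alternatively activated mouse macrophages. C2cd4b and its neighbour C2cd4a encode small nuclear proteins described in human endothelial cells as induced by inflammatory signals. Bex4 belongs to the brain-expressed X-linked (BEX) family of small proteins, close relatives of the TCEAL family.

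Library totals lay between 14324010 and 14563501 counts, and a count of 3 in a library, the floor used here for a gene with no counts, equalled 0.181 to 0.222 CPM. The summed level of 8 muscle fibre markers was 123000 to 140000 CPM in exercised MKO, 124000 to 147000 in exercised WT, 108000 to 122000 in sedentary MKO and 102000 to 131000 in sedentary WT libraries, so the labelled tissue was seen in all 12. Feimin was taken to be B230219D22Rik from general knowledge. It had 49 to 67 counts in exercised MKO against 293 to 405 in exercised WT libraries, and 60 to 92 in sedentary MKO against 316 to 360 in sedentary WT libraries. Exercised WT replicate 5 stood apart from the other 11 libraries. It held 824 counts of albumin (Alb), 129 of transthyretin (Ttr) and 46 of Apoa1, and each of these liver transcripts was at 0 in the other 11. Because Arg1 is itself a liver enzyme, some results are given with and without this library. These are the number of genes that met the rule in WT, which of the 5 met it, and the WT folds of Arg1, Gnat1 and Bex4 against the floor. Other values include it unless stated. In whole tissue, fewer cells of a type and less RNA per cell cannot be told apart.

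All 5 genes met the rule in WT mice, and C2cd4b and Vdr met it in MKO mice as well. Applied to the whole table, the rule was met by 40 genes in WT, 11 in MKO, 48 in either and 3 in both genotypes. Of the 40 in WT, 23 had counts in only 1 of the 3 exercised libraries, and for 21 of these that library was replicate 5. Only 10 of the 40 had counts in all 3 exercised WT libraries, and the 5 genes are among those 10. Near the threshold, Bex4 (1.06 CPM) was the third gene inside it in WT, after Serpina1a and Orm1 (both 1.01 CPM). The nearest outside were A730049H05Rik (0.926 CPM), Apoh (0.901 CPM) and Apob (0.884 CPM). In MKO the nearest inside were Rsph1 (1.05 CPM), Capn11 (1.12 CPM) and Sla2 (1.2 CPM), and the nearest outside Spdya (0.972 CPM), Gm13301 (0.952 CPM) and Has1 (0.944 CPM). Without exercised WT replicate 5 the rule was met by 18 genes in WT. C2cd4b (2.96 CPM), Vdr (1.74 CPM), Bex4 (1.15 CPM) and Arg1 (1.09 CPM) still met it then, and Gnat1 (0.906 CPM) did not.

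**Figure D1:**
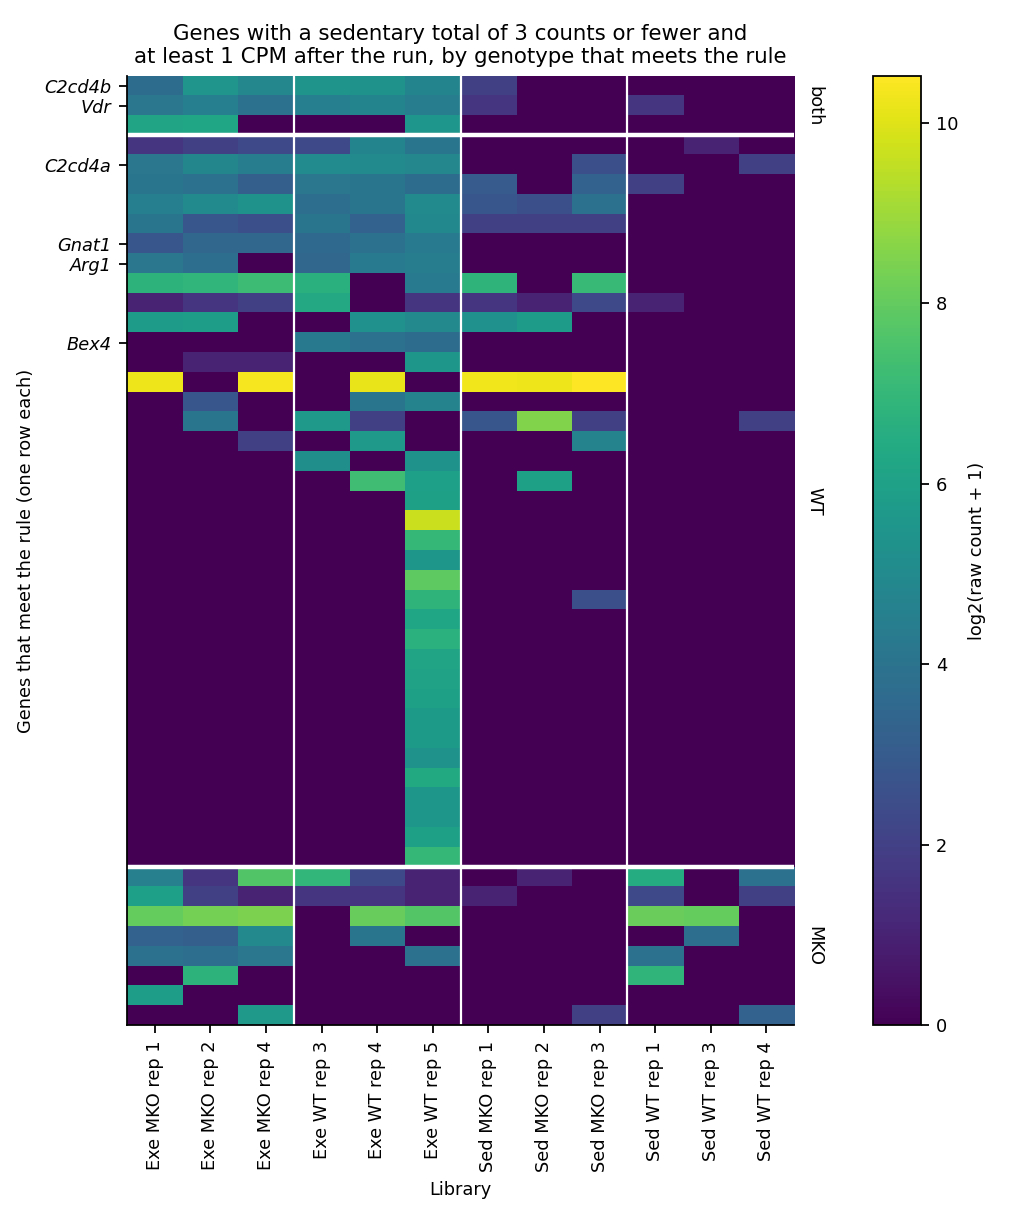
Raw counts as log2(count + 1) of the 48 genes that met the rule in either genotype (rows) in the 12 libraries (columns), grouped by the genotype in which the rule was met; MKO is the cFeimin knockout. The column of exercised WT replicate 5 holds the only exercised WT counts of 21 of the 40 rows that met the rule in WT. The 5 labelled genes (and C2cd4a) have counts in all 3 exercised WT libraries.

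All 5 were weakly expressed genes even after the run. Between 12% (Bex4) and 27.4% (C2cd4b) of the 14486 genes tested had a lower mean CPM in exercised WT muscle. Per length of exon, the level in exercised WT muscle was 1.97 ± 0.455 CPM per kb for C2cd4b, 1.27 ± 0.235 for Bex4, 0.558 ± 0.209 for Arg1, 0.353 ± 0.103 for Gnat1 and 0.296 ± 0.0376 for Vdr (SD, n = 3). In that order Bex4 and Arg1 did not overlap between libraries, and each other pair of neighbours did. In exercised MKO muscle the levels were 1.53 ± 0.918 CPM per kb for C2cd4b, 0.318 ± 0.279 for Arg1, 0.224 ± 0.0574 for Vdr and 0.206 ± 0.0608 for Gnat1, with Bex4 at 0 counts.

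**Figure D2:**
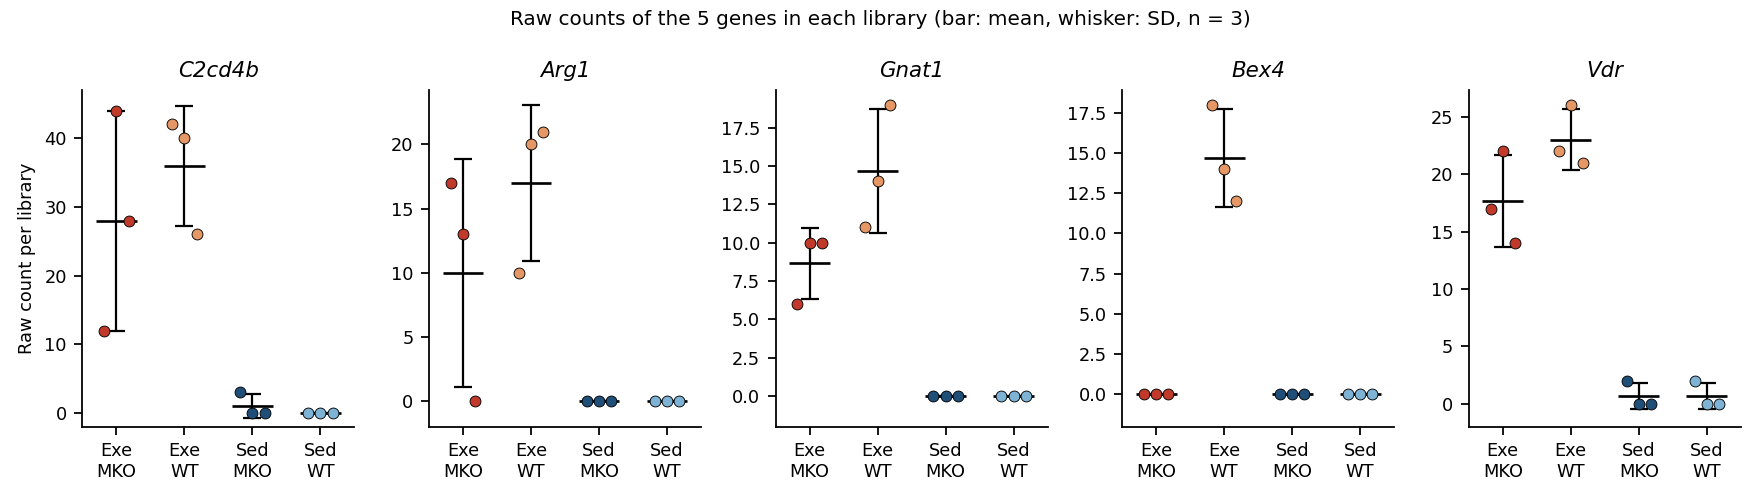
Raw counts of C2cd4b, Arg1, Gnat1, Bex4 and Vdr in each of the 12 libraries (points), with the group mean (bar) and SD (whisker, n = 3); Exe is exercised, Sed sedentary. The exercised libraries lie between 6 and 44 counts except Arg1 in exercised MKO replicate 4 and Bex4 in all exercised MKO libraries, which are at 0; no sedentary library exceeds 3.

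RefSeq promoter windows of GRCm38.p6 were at hand for 3 of the 5 genes, Vdr, C2cd4b and Bex4. They are shown because counts of all 3 genes were at 0 to 3 per library at rest and above 10 in every exercised WT library. Each runs from 250 bases before the start site to 50 bases from it on, 5′ to 3′ on the gene's strand. The windows are chr15:97908247-97908546 (minus strand) for Vdr, chr9:67759187-67759486 (plus strand) for C2cd4b and chrX:136138746-136139045 (plus strand) for Bex4. Capitals mark matches on either strand to the cAMP response element TGACGTCA or its core TGACG, the AP-1 site TGANTCA, the NR4A response element AAAGGTCA, the E-box CACGTG and the GC box GGGCGG.
Vdr: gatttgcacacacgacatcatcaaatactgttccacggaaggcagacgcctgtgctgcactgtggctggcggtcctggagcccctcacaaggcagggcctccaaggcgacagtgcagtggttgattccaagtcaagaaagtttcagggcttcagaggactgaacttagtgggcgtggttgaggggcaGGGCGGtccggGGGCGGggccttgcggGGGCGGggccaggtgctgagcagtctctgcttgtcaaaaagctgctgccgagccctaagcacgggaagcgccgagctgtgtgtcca
C2cd4b: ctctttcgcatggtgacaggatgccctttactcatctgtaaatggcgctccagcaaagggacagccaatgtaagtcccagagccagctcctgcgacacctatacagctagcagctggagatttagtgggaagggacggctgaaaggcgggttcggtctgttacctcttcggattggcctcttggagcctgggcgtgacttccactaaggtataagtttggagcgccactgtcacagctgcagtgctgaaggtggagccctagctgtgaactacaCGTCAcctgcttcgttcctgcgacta
Bex4: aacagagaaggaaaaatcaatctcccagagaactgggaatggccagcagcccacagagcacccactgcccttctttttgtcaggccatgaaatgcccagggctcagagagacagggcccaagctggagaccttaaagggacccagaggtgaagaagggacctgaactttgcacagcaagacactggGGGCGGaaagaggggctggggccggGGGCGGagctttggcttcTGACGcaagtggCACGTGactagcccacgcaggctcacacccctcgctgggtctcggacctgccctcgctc
The core lies inside the full element, so a full element also counts as a core. The Vdr window uses the RefSeq start at 97908296, which lies inside the annotated gene. The Vdr window held 3 GC boxes, between 63 and 31 bases before the start, and none of the other motifs. The C2cd4b window held 1 core, which begins 24 bases after the first transcribed base. The Bex4 window held 2 GC boxes, 1 core that begins 21 bases before the start and 1 E-box that begins 9 bases before it. No window held the full cAMP response element, the AP-1 site or the NR4A element. Of 32851 promoter windows of this length, 20.8% held the core, 1.79% the full element, 7.81% the AP-1 site, 1.51% the NR4A element, 7.15% the E-box and 35.7% the GC box.

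Vdr (ENSMUSG00000022479; chromosome 15, 97854425 to 97910630, minus strand, GRCm38, 14 exon blocks) gave the most even counts of the 5. It had 17, 22 and 14 counts in exercised MKO libraries (replicates 1, 2 and 4) and 22, 26 and 21 in exercised WT libraries (replicates 3, 4 and 5), against 2, 0 and 0 in sedentary MKO (replicates 1, 2 and 3) and 2, 0 and 0 in sedentary WT libraries (replicates 1, 3 and 4). The replicates of every gene below are given in this order. Every exercised library lay above every sedentary one, and the exercised genotypes overlapped. Counts summed over the group and scaled to library size were 29.3-fold higher in exercised than sedentary MKO (95% exact interval 7.73 to 249.0) and 36.8-fold higher in exercised than sedentary WT muscle (9.81 to 310.0). These intervals cover counting error only. The same counts chose Vdr, so the intervals are a description and no test. Between genotypes after the run, Vdr averaged 1.27 ± 0.324 CPM in MKO and 1.67 ± 0.212 CPM in WT (SD, n = 3 each). The log2 fold change was -0.40 ± 0.38 (SE). Vdr met the rule in both genotypes, so this difference is a description. None of the 50-base words of its 6 annotated transcripts occurred in another gene. Its neighbours Hdac7 and Tmem106c did not pass the test (edgeR, adjusted p under 0.05) in any of the 4 comparisons.

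The partners of the receptor were present at rest and after the run. The retinoid X receptor gene Rxra stood at 139 ± 10.9 CPM in exercised and 123 ± 12.4 CPM in sedentary WT muscle (adjusted p = 0.483), and Rxrg at 67.2 ± 4.67 CPM in exercised and 53.1 ± 9.95 CPM in sedentary WT muscle (adjusted p = 0.363). Of 30 other genes of the vitamin D system 16 were tested. In MKO muscle 3 of 16 were higher after the run and 0 lower, against 4.05% of all 14486 genes called in either direction. In WT muscle 3 of 16 were higher and 0 lower, against 8.24% of all genes. Among those called in both were the endothelial anticoagulant receptor gene Thbd and the cell-cycle inhibitor gene Cdkn1a. Thbd rose to 41.4 ± 9.22 CPM in exercised MKO against 21.7 ± 4.68 CPM in sedentary MKO (log2 fold change 0.93 ± 0.18, adjusted p = 0.0137), and to 46.9 ± 2.55 CPM in exercised WT against 16.4 ± 1.92 CPM in sedentary WT muscle (1.52 ± 0.19, adjusted p = 0.00041). Cdkn1a rose by 1.12 ± 0.23 in MKO (adjusted p = 0.0167) and 1.69 ± 0.23 in WT (adjusted p = 0.000863) on the log2 scale. The MKO call of Cdkn1a was lost without exercised MKO replicate 2 or 4 or sedentary MKO replicate 1 or 2 (adjusted p up to 0.0721), and that of Thbd without exercised MKO replicate 2 or 4 (up to 0.0553). The median log2 fold change of the 16 was 0.02 in MKO and 0.16 in WT, against 0.00 and -0.01 for all genes.

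The best-known target gene of the receptor and 2 of the enzymes that activate vitamin D were at or near 0, whereas another, Cyp27a1, was well expressed. Cyp24a1 had 0 counts in all 12 libraries. The liver hydroxylase Cyp2r1 had at most 2 in a sedentary MKO library and 0 in the other groups, and Cyp27b1, the kidney enzyme that makes the active hormone, at most 2 in a sedentary WT library and 0 in the other groups. Cyp27a1, a mitochondrial sterol hydroxylase, stood at 64.9 ± 13.1 CPM in exercised MKO, 90.0 ± 12.2 in exercised WT, 65.5 ± 2.51 in sedentary MKO and 72.3 ± 17.3 in sedentary WT muscle and passed in none of the 4 comparisons. Gc, the vitamin D carrier of blood plasma, had 52 counts in exercised WT replicate 5 and 0 in the other 11 libraries. Of 6 markers of keratinocytes, a cell type known for Vdr, Krt5, Krt14, Krt1 and Dsp were at 0 in every library, and the sums were 1.11 to 1.64 CPM in exercised MKO and 1.13 to 1.69 in exercised WT, against 1.54 to 2.11 in sedentary MKO and 1.15 to 1.23 in sedentary WT libraries. In all, 14 of the 30 genes were not tested, and 9 of these were at 0 in every library.

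Gnat1 (ENSMUSG00000034837; chromosome 9, 107674474 to 107679712, minus strand, 9 exon blocks) had 6, 10 and 10 counts in exercised MKO and 11, 14 and 19 in exercised WT libraries, and 0 in all 6 sedentary libraries. The exercised MKO libraries all lay below the exercised WT ones. Set against a floor of 3 counts per library, exercised muscle was at least 3.22-fold higher than sedentary muscle in MKO and at least 5.23-fold higher in WT (at least 4.43-fold without exercised WT replicate 5). Gnat1 did not meet the rule in MKO mice. It passed the filter on low counts only through exercised libraries, so the MKO difference too is given as a description, with no test. Between genotypes after the run it averaged 0.623 ± 0.184 CPM in MKO and 1.07 ± 0.312 CPM in WT (log2 fold change -0.78 ± 0.37). The exercised WT counts chose Gnat1, so this difference too is a description.

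Most other genes of the rod cell cascade were at or near 0. Of 22 only Rom1, an outer-segment protein gene, and Guca1b, a guanylate cyclase activator gene, had enough counts to test, and neither passed in any of the 4 comparisons. Of the 20 genes not tested, 9 were at 0 in every library. Counts per library ran from 42 to 199 for Rom1, from 0 to 14 for Guca1b and from 3 to 12 for Pde6g, which was not tested. Among 23 tested genes for other G protein subunits, 0 were called in MKO and 1 in WT after the run. Of all genes, 4.05% were called in MKO and 8.24% in WT, at which these counts are no result about the family. The gene called in WT was the gamma subunit gene Gng11. It fell to 5.63 ± 1.28 CPM in exercised WT against 10.5 ± 2.63 CPM in sedentary WT muscle (-0.90 ± 0.22, adjusted p = 0.0245). Its call was lost without exercised WT replicate 4 or 5 or sedentary WT replicate 3 (adjusted p up to 0.101). The beta subunit that pairs with transducin, Gnb1, was abundant throughout, at 35.9 ± 1.03 CPM in exercised MKO, 33.7 ± 0.512 in exercised WT, 32.1 ± 1.89 in sedentary MKO and 31.9 ± 0.888 in sedentary WT muscle.

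The nearest coding gene upstream of Gnat1 also changed after the run. Between them, 370 bases from Gnat1 on the opposite strand, lies A930036K24Rik, with 0, 1 and 0 counts in exercised MKO and 2, 1 and 2 in exercised WT libraries and 0 in all sedentary libraries. Sema3f, a semaphorin gene, ends 1788 bases before Gnat1 starts, on the same strand, and is transcribed towards it. It rose to 10.8 ± 1.38 CPM in exercised MKO against 4.72 ± 1.56 CPM in sedentary MKO muscle (1.2 ± 0.22, adjusted p = 0.00979). In WT it rose to 12.8 ± 2.14 against 5.16 ± 0.643 CPM (1.31 ± 0.22, adjusted p = 0.00312). The MKO call missed the threshold without exercised MKO replicate 2 (adjusted p = 0.0514). Slc38a3, an amino acid transporter gene on the other side of Gnat1, did not pass (0.57 ± 0.26 in MKO and 0.61 ± 0.26 in WT, adjusted p = 0.331 and 0.193). Whether transcripts of Sema3f that run on into Gnat1 add to its counts was not tested. Of the 50-base words of the Gnat1 transcripts, 1.89% also occurred in other genes. Among these were Uchl5, with 163 to 273 counts per library, and Mgea5, with 325 to 434. The part of such shared reads in the Gnat1 counts was not tested.

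Arg1 (ENSMUSG00000019987; chromosome 10, 24915221 to 24927484, minus strand, 7 exon blocks) had 17, 13 and 0 counts in exercised MKO and 10, 20 and 21 in exercised WT libraries, and 0 in all 6 sedentary libraries. Exercised MKO replicate 4 was thus at the resting level, and the exercised genotypes overlapped. A 0 of this kind was uncommon but not unique. Of 2800 genes with at least 2 exercised MKO libraries between 10 and 30 counts, 48 (1.71%) had 0 in the other one. Against the floor of 3 counts per library, exercised muscle was at least 3.66-fold higher than sedentary in MKO and at least 6.08-fold higher in WT, or at least 5.34-fold without exercised WT replicate 5. Arg1 did not meet the rule in MKO, but like Gnat1 it passed the filter only through exercised libraries, and its difference there is likewise a description. Between genotypes after the run it averaged 0.709 ± 0.622 CPM in MKO and 1.24 ± 0.466 CPM in WT (-0.79 ± 0.75, or -0.23 without exercised MKO replicate 4). The exercised WT counts chose Arg1, so that difference is a description as well.

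Summed macrophage markers did not lie above their resting range after the run in either genotype. The summed level of 10 macrophage markers was 65.1 to 152.0 CPM in exercised MKO and 50.7 to 60.1 in exercised WT libraries. At rest it was 118.0 to 163.0 in sedentary MKO and 77.2 to 110.0 in sedentary WT libraries. Cd163, a scavenger receptor of resident macrophages, fell to 2.43 ± 0.723 CPM in exercised MKO against 4.56 ± 0.448 CPM in sedentary MKO muscle (-0.90 ± 0.18, adjusted p = 0.0143, or 0.0513 without sedentary MKO replicate 3). In WT it fell to 1.99 ± 0.0786 against 3.82 ± 0.141 CPM (-0.94 ± 0.19, adjusted p = 0.00841). For 6 markers of alternatively activated macrophages the sums were 7.68 to 12 CPM in exercised MKO and 6.04 to 10.3 in exercised WT, against 14.8 to 18.7 in sedentary MKO and 9.41 to 17.8 in sedentary WT libraries. Of 12 neutrophil markers, 6 were at 0 in exercised MKO, 8 in exercised WT, 8 in sedentary MKO and 10 in sedentary WT libraries, with sums of 1.37 to 1.87, 0.663 to 1.56, 0.466 to 1.07 and 0 to 0.202 CPM in that order. These neutrophil sums rest on a few reads, and none of the 12 genes had enough counts to test. The exercised and sedentary sums did not overlap in either genotype, while single genes did, such as Ngp with 5, 4 and 0 counts in exercised MKO against 0, 10 and 0 in sedentary MKO libraries. The part of macrophages and neutrophils in the Arg1 counts was not tested. All 5 hepatocyte markers were at 0 in every library but exercised WT replicate 5, where they summed to 78.1 CPM. Arg1 had 10 and 20 counts in the other 2 exercised WT libraries and 17 and 13 in exercised MKO replicates 1 and 2. None of these 5 markers was detected there. Orm1 and Apoh, outside this list, had their highest counts in exercised WT replicate 5 (25 and 29). Orm1 also had 16 in exercised WT replicate 4 and 6 in exercised MKO replicate 2. Apoh also had 8 in exercised WT replicate 3, 1 in exercised MKO replicate 1 and up to 7 in a sedentary MKO library. The part of liver RNA in the Arg1 counts was not tested.

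**Figure D3:**
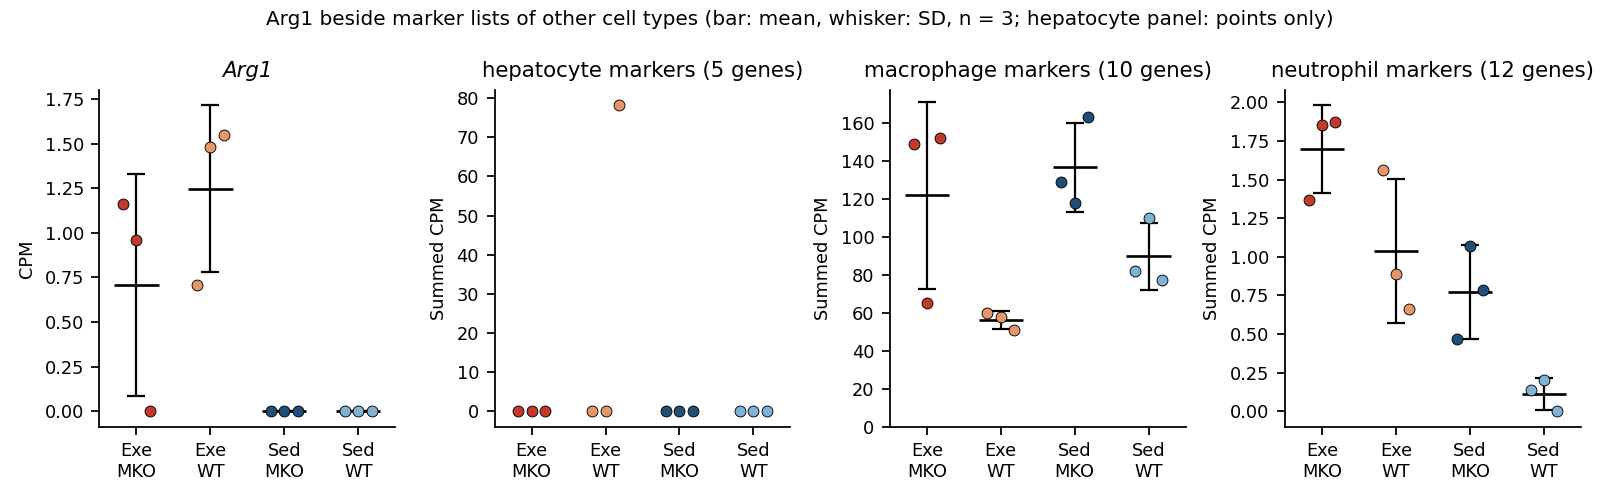
CPM of Arg1 and summed CPM of hepatocyte, macrophage and neutrophil markers in each library (points), with mean and SD (n = 3) except in the hepatocyte panel. Hepatocyte markers are above 0 only in exercised WT replicate 5, and macrophage markers are lower in exercised WT (50.7 to 60.1 CPM) than in sedentary WT libraries (77.2 to 110.0 CPM).

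Some genes of the pathway around arginase passed after the run. Of 29 other genes for arginine, urea, nitric oxide and polyamine metabolism 25 were tested. In MKO muscle 2 of 25 rose and 0 fell, against 2.29% of all genes higher and 1.75% lower, and in WT muscle 3 rose and 1 fell, against 4.14% and 4.1% of all genes. The cationic amino acid transporter Slc7a1, which carries arginine into cells, rose to 4.53 ± 0.666 CPM in exercised MKO against 1.78 ± 0.468 CPM in sedentary MKO muscle (1.35 ± 0.22, adjusted p = 0.00465), and to 5.02 ± 1.14 in exercised WT against 2.0 ± 0.122 CPM in sedentary WT muscle (1.32 ± 0.21, adjusted p = 0.00245). Nos3, the endothelial nitric oxide synthase, which uses the same substrate as arginase, rose to 16.6 ± 4.87 CPM in exercised MKO against 7.74 ± 1.95 CPM in sedentary MKO (1.10 ± 0.26, adjusted p = 0.0331), and to 22.4 ± 5.95 in exercised WT against 8.76 ± 1.23 CPM in sedentary WT muscle (1.35 ± 0.25, adjusted p = 0.00593). The MKO call of Nos3 was lost without exercised MKO replicate 1 or 2 or any 1 sedentary MKO library (adjusted p up to 0.15). In WT, Azin1, which protects ornithine decarboxylase from breakdown, rose by 0.75 ± 0.14 (adjusted p = 0.00596). Ddah2, an enzyme that clears nitric oxide synthase inhibitors, fell by 0.60 (-0.60 ± 0.16, adjusted p = 0.0438). The call of Ddah2 was lost without exercised WT replicate 4 or 5 or any 1 sedentary WT library (up to 0.168). The second arginase, Arg2, had at most 1 count in an exercised MKO library, 0 in exercised WT, at most 2 in sedentary MKO and 0 in sedentary WT libraries. Ornithine decarboxylase, Odc1, had a level of 79.1 ± 29.4 CPM in exercised MKO, 151 ± 30.8 in exercised WT, 71.4 ± 28.9 in sedentary MKO and 105 ± 53.3 in sedentary WT muscle and passed in no comparison.

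C2cd4b (ENSMUSG00000091956; chromosome 9, 67759437 to 67760930, plus strand, 2 exon blocks) had the highest counts of the 5 genes. It had 12, 44 and 28 counts in exercised MKO and 42, 40 and 26 in exercised WT libraries, against 3, 0 and 0 in sedentary MKO and 0, 0 and 0 in sedentary WT libraries. Every exercised library lay above every sedentary one, and exercised MKO replicate 1 was the lowest of the exercised libraries. Exercised MKO muscle was 31.0-fold higher than sedentary MKO muscle in summed, scaled counts (95% exact interval 10.2 to 153.0), and exercised WT muscle at least 12.8-fold higher than sedentary WT muscle at the floor. After the run the level was 2.03 ± 1.22 CPM in MKO and 2.61 ± 0.604 CPM in WT (-0.37 ± 0.47). That difference was 0.01 without exercised MKO replicate 1. C2cd4b met the rule in both genotypes, so this difference is a description, and the interval above is no test.

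Its neighbour and relative C2cd4a, 69559 bases away on the opposite strand, had the same pattern. C2cd4a had 17, 27 and 21 counts in exercised MKO and 33, 32 and 28 in exercised WT libraries, against 0, 0 and 5 in sedentary MKO and 0, 0 and 3 in sedentary WT libraries. It met the rule in WT, where its difference is thus a description. In MKO it did not meet the rule, at 1.56 ± 0.42 CPM in exercised against 0.101 ± 0.174 CPM in sedentary muscle (log2 fold change 3.75 ± 0.72). Like the 5 genes it was nearly silent at rest and passed the filter by its exercised counts. The MKO difference is thus a description too, and its call was lost without exercised MKO replicate 2. C2cd4c, a more distant relative, did not pass in WT (1.05 ± 0.244 CPM exercised and 0.73 ± 0.381 CPM sedentary, adjusted p = 0.578), and C2cd4d was not tested. Of the 50-base words of the C2cd4b transcript, 8.37% also occurred in C2cd4a, so part of the counts of either may belong to the other. Talin 2 (Tln2), the nearest coding gene on the other side, did not pass in any comparison.

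A long noncoding RNA gene lies across C2cd4b on the opposite strand. M5C1000I18Rik shares 627 exonic bases with it, and 41.5% of the 50-base words of C2cd4b occur in its transcripts. The sources used here do not say whether counting used strand, and without strand the reads of the pair cannot be told apart. M5C1000I18Rik had 8, 4 and 8 counts in exercised MKO and 0, 0 and 0 in exercised WT libraries, against 2, 2 and 0 in sedentary MKO and 1, 0 and 2 in sedentary WT libraries. Counts of both genes together, a sum chosen after the values were seen, were 20, 48 and 36 in exercised MKO and 42, 40 and 26 in exercised WT libraries, against 5, 2 and 0 in sedentary MKO and 1, 0 and 2 in sedentary WT libraries. The exercised totals were then 104 in MKO and 108 in WT, against 84 and 108 for C2cd4b alone. Markers of endothelial cells (9 genes) summed to 167.0 to 231.0 CPM in exercised MKO and 213.0 to 250 in exercised WT, against 213.0 to 288.0 in sedentary MKO and 227.0 to 298.0 in sedentary WT libraries, so the exercised and sedentary ranges overlapped. The median log2 fold change of the 9 genes after the run was -0.41 in MKO and -0.41 in WT, against 0.00 and -0.01 for all genes. All but Cldn5 lay below 0 in both genotypes. The tight-junction gene Cldn5 rose in MKO (0.95 ± 0.21, adjusted p = 0.0294) and in WT (1.61 ± 0.21, adjusted p = 0.000608). The angiopoietin receptor gene Tek fell in MKO (-1.01 ± 0.18, adjusted p = 0.00839) and in WT (-0.97 ± 0.18, adjusted p = 0.00571), and Vwf, the von Willebrand factor gene, fell in MKO (-0.80 ± 0.18, adjusted p = 0.0317). The MKO calls of Cldn5 and Vwf were each lost in 4 of 6 fits with 1 library left out, both without exercised MKO replicate 2 or sedentary MKO replicate 1 or 2, Cldn5 also without sedentary MKO replicate 3 and Vwf without exercised MKO replicate 4 (adjusted p up to 0.113 and 0.108). The part of endothelial cells in the C2cd4b counts was not tested.

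Bex4 (ENSMUSG00000047844; chromosome X, 136138996 to 136140443, plus strand, 3 exon blocks) was the 1 gene of the 5 seen in a single group. It had 0, 0 and 0 counts in exercised MKO and 18, 14 and 12 in exercised WT libraries, and 0 in all 6 sedentary libraries. Exercised WT muscle was at least 5.20-fold higher than sedentary WT muscle at the floor (at least 5.64-fold without exercised WT replicate 5). Exercised MKO muscle was at least 4.98-fold lower than exercised WT muscle at the floor. The exercised WT counts are the ones that chose Bex4 and the only ones by which it passed the filter, so this difference is a description of those values. Both MKO groups were at 0, so no fold is given between them.

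The 9 relatives of Bex4 that were tested had counts in every library. Bex6 was at 0 in every library, and Bex2 was at 0 in all exercised WT libraries. Bex1 stood at 7.37 ± 0.794 CPM in exercised MKO and 9.15 ± 1.64 CPM in exercised WT muscle (-0.31 ± 0.21, adjusted p = 0.469). Tceal7 stood at 7.12 ± 1.03 and 9.48 ± 1.14 CPM (-0.41 ± 0.16, adjusted p = 0.261). Bex3 lay the other way, at 1.14 ± 0.218 and 0.632 ± 0.124 CPM (0.85 ± 0.24, adjusted p = 0.229). Of 11 BEX and TCEAL genes 9 were tested, and edgeR called 0 of 9 in each of the 4 comparisons. The shares of all genes called were 0.0345% between genotypes after the run, 0.0069% at rest, 4.05% for exercise in MKO and 8.24% in WT, at which 0 of 9 is no result about the family. Nearest to the threshold in WT after the run was Tceal9, at 12.5 ± 1.65 CPM in exercised and 8.91 ± 0.358 CPM in sedentary muscle (0.49 ± 0.14, adjusted p = 0.0527). Tceal8, the next gene on the X chromosome, 28541 bases away, had 79, 77 and 79 counts in exercised MKO and 96, 83 and 89 in exercised WT libraries. About 49.7% of the 50-base words of the Bex4 transcript occur in other genes, 25.8% in Bex1, 4.19% in Tceal7 and 19.7% and 18.9% in the pseudogenes Gm12245 and Gm4322, which were at 0 in every library. The sources used here do not say how reads with several matches were counted, so the Bex4 counts are uncertain. Bex1 held 113, 107 and 90 counts in exercised MKO and 138, 141 and 99 in exercised WT libraries, against 75, 83 and 139 in sedentary MKO and 87, 98 and 125 in sedentary WT libraries. Whether reads moved between Bex1 and Bex4 was not tested. Markers of neurons and Schwann cells (8 genes) summed to 27.0 to 199.0 CPM in exercised MKO and 40.0 to 138.0 in exercised WT, against 45.2 to 268.0 in sedentary MKO and 35.8 to 115.0 in sedentary WT libraries, ranges that overlapped between all groups.

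**Figure D4:**
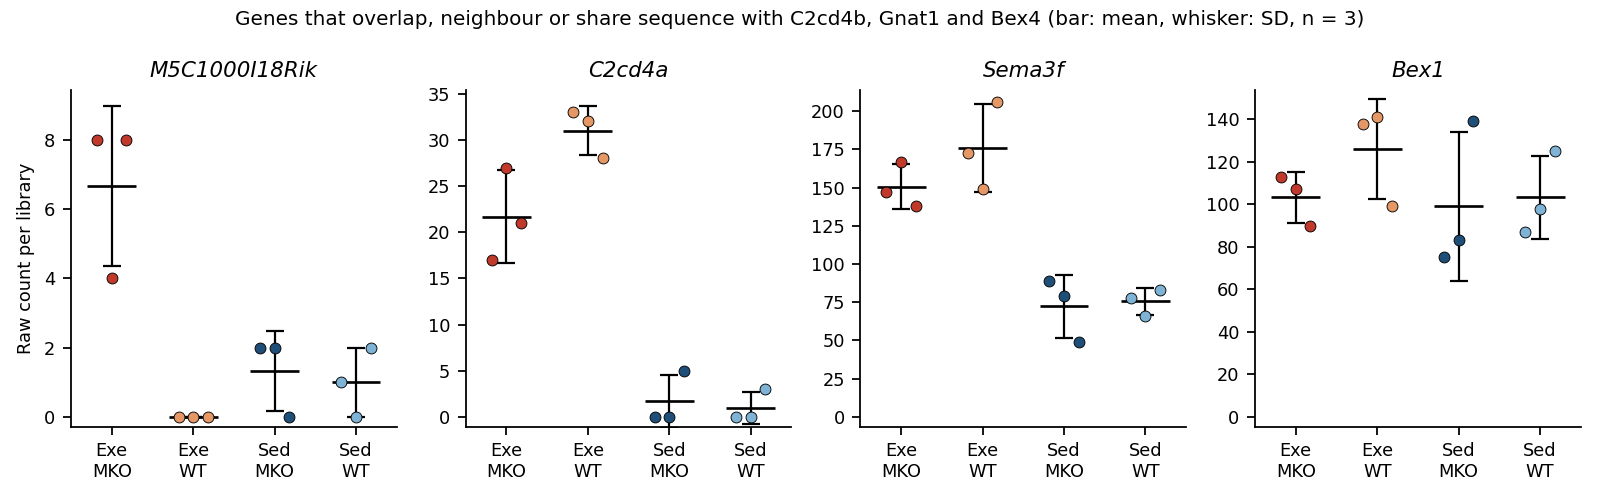
Raw counts per library (points; bar mean, whisker SD, n = 3) of the antisense gene M5C1000I18Rik and the relative C2cd4a for C2cd4b, the upstream neighbour Sema3f for Gnat1, and the relative Bex1 for Bex4. C2cd4a and Sema3f are higher in every exercised library than in any sedentary one, while Bex1 overlaps between all groups.

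Between genotypes after the run, 0 of the 5 genes passed, against 0.0345% of all genes tested (5 of 14486; 0.0069% higher and 0.0276% lower in MKO). Bex4, whose exercised WT counts chose it, was the 1 gene of the 5 with an unadjusted p under 0.05, and DESeq2 gave no adjusted p for any of the 5. All 5 had a lower mean in exercised MKO than in exercised WT muscle. Since all 5 met the rule in WT, where a high exercised level was required, the choice itself favours that direction. The count of 0 of 5 is drawn from the same values and is a description. At rest the 5 genes had totals of 0 to 3 counts over the 3 MKO libraries and 0 to 2 over the 3 WT libraries, and no difference between genotypes was detectable at this depth. None of the 5 passed there in edgeR or DESeq2 or had an unadjusted p under 0.05 in edgeR. Of all genes, 0.0069% were called (1 of 14486, lower in MKO). The rule required totals of 0 to 3 counts in sedentary WT libraries, so this too is a description and no result about the 5.

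The 6 pathway and family lists held 127 genes, of which 77 were tested. After the run 6 were higher and 0 lower in MKO muscle, and 7 higher and 2 lower in WT muscle, against 2.29% and 1.75% of all genes in MKO and 4.14% and 4.1% in WT. C2cd4a is among the higher genes of both genotypes. In WT it met the rule itself, and it passed the filter by its exercised counts, so its calls support nothing. Without exercised MKO replicate 2 the 6 became 2. The 2 lower genes in WT became 0 without exercised WT replicate 4 or 5 or sedentary WT replicate 3. With sedentary WT replicate 1 or 4 left out there was 1. At an unadjusted p under 0.05 there were 11 in MKO and 14 in WT. Between genotypes edgeR called 0 of 77 after the run, where 14 had an unadjusted p under 0.05. DESeq2 called 2 of the list genes there, 1 higher and 1 lower in MKO. The higher one was Gamt (log2 fold change 1.19, adjusted p = 0.0293), the last enzyme of creatine synthesis. At rest edgeR and DESeq2 called 0, and 6 had an unadjusted p under 0.05 in edgeR.

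**Figure D5:**
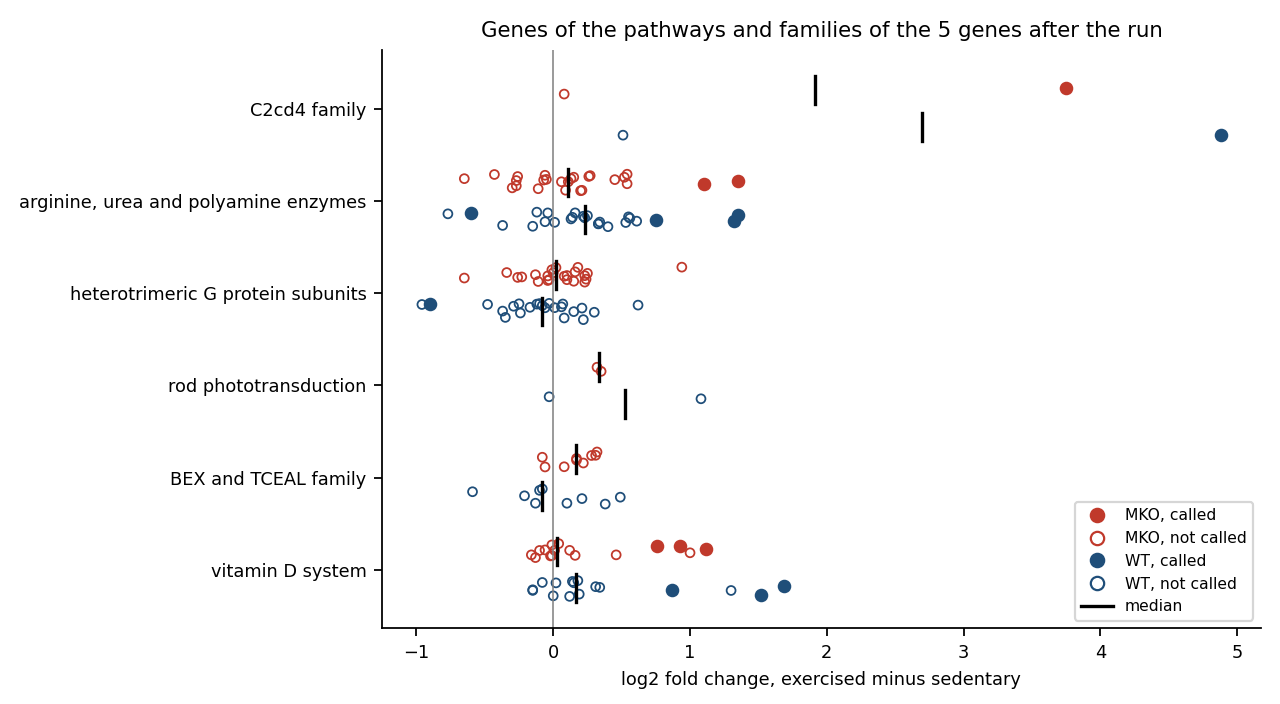
Log2 fold change, exercised minus sedentary, of every tested gene of the 6 lists in MKO (upper row of each list) and WT (lower row); filled points passed at an edgeR adjusted p under 0.05, and black bars mark medians. C2cd4a stands far to the right at 3.75 in MKO and 4.88 in WT, and the BEX and TCEAL genes hold no filled point.

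The genes whose pattern over the 12 libraries was most like each of the 5 were found by the correlation of log2 CPM among all genes tested. The points share the split into exercised and sedentary libraries, so a high r mostly reflects that split, and it is given as a description. For Vdr they were Btg2 (r = 0.995), an antiproliferative early-response gene, the salt-inducible kinase gene Sik1 (0.995) and Midn (0.992). For C2cd4b they were the AP-1 gene Junb (0.986), the antioxidant enzyme gene Srxn1 (0.982) and Litaf (0.981). Junb stood at 350.0 CPM in exercised MKO and 581 in exercised WT against 9.73 in sedentary MKO and 5.73 in sedentary WT muscle. For Gnat1 they were Impact (0.992), the elongation factor gene Ell2 (0.990) and Fam222a (0.989). For Arg1 they were the adaptor gene Sh2b3 (0.979), Ppp4r1 (0.957) and the Notch ligand gene Jag2 (0.952), and for Bex4 Rtkn2 (0.910), the polymerase I factor gene Rrn3 (0.893) and Tmcc3 (0.890). Among the 5 themselves r was 0.972 between C2cd4b and Vdr, 0.963 for Gnat1 with either, 0.801 to 0.862 for Arg1 with these 3, and 0.628 to 0.689 for Bex4 with any of the others.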

How the data were processed

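RNA-seq counts of 12 libraries, 3 per group, were analysed as deposited by the authors: raw counts per Ensembl gene, 43432 identifiers, of which symbols were matched for 42462. The submitters' processing notes name DESeq2 1.40.2, R 4.3, StringTie 2.1.4, SAMtools 1.9, HISAT2 2.2.1 and FastQC 0.12.1, with the builds mm10 and GRCm38.p6. They do not say what produced the counts or how strand and multiply matching reads were treated. Of 18 libraries that the labels' protocols mention, 12 were used here. The column of exercised MKO replicate 4 has a misspelt name, and no other column matched that library.

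The edgeR function filterByExpr, at a minimum count of 10 and a minimum total of 15, kept 14486 genes, the 5 included; each passed through exercised libraries only. Counts were fitted with edgeR 4.0.16 in R 4.3.3, with TMM factors (0.928 to 1.15), and a quasi-likelihood model of all 12 libraries by group (8 residual degrees of freedom). A gene passed where its p, adjusted over all genes by Benjamini-Hochberg, was under 0.05. Each SE is the absolute log2 fold change divided by the square root of F. Ratios of summed counts have 95% exact (Clopper-Pearson) intervals. Groups at 0 were set to a floor of 3 counts per library. Intervals and floors cover counting error only. Fitted fold changes of genes at 0 in a group depend on the prior count. They are given with the alternatives only, to compare settings. Exon lengths, positions, neighbours and the 50-base words came from GENCODE M21 (GRCm38). Likeness used log2 CPM with a prior count of 2. The procedure was tested on simulated data.

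The 5 genes and all lists were chosen with earlier results of these data known. Named genes were the 5, the 3 most alike per gene, nearest or overlapping genes, genes at the threshold of the rule, and list genes that passed; other list genes named were chosen for their role, and some list genes are not reported here. Alternatives were DESeq2 1.42.0, median-of-ratios factors, total counts alone, no filter, only the compared groups, a block for the replicate number, and leaving out each library in turn. Python 3.11.15 with matplotlib 3.10.9 drew the figures.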

Additional observations from a re-analysis of the deposited data

How the results depend on the processing

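Between genotypes after the run, none of the 5 genes passed under any alternative that gave an adjusted p. All 5 met the rule in WT, so these values are a description. The direction reversed once, for C2cd4b at 0.01 without exercised MKO replicate 1 (range with 1 library left out -0.90 to 0.01). With 1 library left out the others ranged from -1.36 to -0.23 (Arg1), -0.97 to -0.54 (Gnat1), -7.08 to -6.82 (Bex4) and -0.63 to -0.27 (Vdr). Between exercised and sedentary MKO muscle, the fitted value of Arg1 was 6.38 and passed with DESeq2 (5.90, adjusted p = 0.0285). It ranged from 5.81 to 6.96 with 1 library left out and passed in 1 of these 6 fits, without exercised MKO replicate 4. These fitted values, and those of Gnat1 and Bex4, depend on the prior count, since 1 group was at 0, and these genes passed the filter only through exercised libraries, so their p-values support nothing. With only the compared groups Arg1 and Gnat1 did not pass the filter and gave no value. Deviations of same-numbered libraries correlated at -0.153 to 0.0759, and those of differently numbered libraries at -0.103 to 0.109. These values show no pairing by replicate number but cannot exclude it. With the replicate number as a block the fitted value of Gnat1 was 6.05 and missed the threshold (adjusted p = 0.131), the values between genotypes became -5.32 for Arg1 (adjusted p = 0.322), -1.21 for Vdr (0.523), -7.03 for Bex4 (0.356), -0.72 for C2cd4b (0.763) and -0.52 for Gnat1 (0.819), and the number of list genes lower in exercised WT muscle was 0. DESeq2 called 1 list gene higher and 1 lower between genotypes after the run, where edgeR called 0. The 2 list genes lower in exercised WT muscle became 1 with DESeq2, with no filter or with only the compared groups, and 4 with total counts alone (0 to 2 with 1 library left out). The 6 list genes higher in exercised MKO muscle became 2 to 5 with 1 library left out. With total counts alone the median of all genes moved to -0.151 in MKO and -0.103 in WT between exercised and sedentary muscle. The calls were then 855 (259 higher) against 586 (332 higher) in MKO and 1332 (469 higher) against 1193 (599 higher) in WT. Over all genes, calls between genotypes after the run were 125 with DESeq2 against 5, 2 with no filter or the block, and 2 to 108 with 1 library left out (108 without exercised MKO replicate 2). For exercise, the block gave 361 against 586 calls in MKO and 602 against 1193 in WT, and leaving out 1 library gave 316 to 503 and 808 to 943. The 40 genes that met the rule in WT became 12 at a floor of 2 CPM, 92 at 0.5 CPM, 3 if both genotypes had to meet it, and 18 without exercised WT replicate 5, an alternative added after the data were seen. The 11 in MKO became 6 with 0 sedentary counts, 5 at 2 CPM, 28 at 0.5 CPM and 3 in both genotypes. At 6 to 44 counts per library, depth limits what can be said of a difference between genotypes for these genes.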

Other observations

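Besides the 5 genes, 5 others met the rule in WT with counts in all 3 exercised WT libraries. They were C2cd4a, Ccl7, Chrna9, D930015M05Rik and 1700016P03Rik, and were singled out after their values were seen. The monocyte-attracting chemokine gene Ccl7 had 16, 14 and 8 counts in exercised MKO and 17, 16 and 12 in exercised WT libraries, against 7, 0 and 9 in sedentary MKO and 3, 0 and 0 in sedentary WT libraries. Chrna9, which encodes an acetylcholine receptor subunit, had 22, 32 and 41 counts in exercised MKO and 13, 16 and 32 in exercised WT libraries, against 6, 5 and 14 in sedentary MKO and 0, 0 and 0 in sedentary WT libraries.

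Another gene that met the rule in WT, through 1 exercised library, had many counts elsewhere. Gm6977 had 1217, 0 and 1315 counts in exercised MKO and 0, 1154 and 0 in exercised WT libraries, against 1259, 1221 and 1464 in sedentary MKO and 0, 0 and 0 in sedentary WT libraries.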
